A study of Mus musculus with 7 samples.

Results

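Isg15, Usp18, Ube2l6 and Herc6 encode the ubiquitin-like modifier ISG15 and 3 enzymes that attach it to or remove it from other proteins. They were chosen by name, and all 4 were found among the 20343 complete gene rows of the deposited count table. Messenger RNA was measured by RNA sequencing of polyadenylated RNA from the apical heart muscle of 7 mice, and the series title places the comparison in the setting of myocardial inflammation and ageing driven by CD4+ T cells. All 7 mice were of the strain labelled NSG-DRB1*0101, also called NSG-DR1, an immunodeficient mouse that lacks its own T, B and natural killer cells, keeps myeloid cells, and carries a human HLA-DR1 molecule that human T cells can recognise. The 4 control hearts came from untreated mice. The 3 transferred hearts were collected 6 weeks after human CD4+ T cells were given. The age of the mice and the donors of the T cells are not given in the sources used here. Replicate numbers only name the hearts.

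ISG15 is made in large amounts when cells sense interferon, the cytokine family that announces viral infection. It is joined to target proteins through a chain of enzymes, an activating enzyme (E1, Uba7), a conjugating enzyme (E2, Ube2l6) and a ligase (E3, mainly Herc6 in mice), and it is cut off again by the protease Usp18. Usp18 also sits on the type I interferon receptor and dampens its signal, and free ISG15 can leave the cell and act on leukocytes. In heart muscle the system is known from viral myocarditis, where ISG15 modification limits viral spread.

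The genes lie apart from each other on GRCm38.p6, so none shares a promoter with another. Isg15 (gene identifier 100038882) covers chromosome 4, 156199424 to 156200818, minus strand, and its annotated transcript has 2 exons. Usp18 (24110) covers chromosome 6, 121245906 to 121270917, plus strand, with 11 exons. Ube2l6 (56791) covers chromosome 2, 84798828 to 84810003, plus strand, with 4 exons. Herc6 (67138) covers chromosome 6, 57580992 to 57665136, plus strand, with 23 exons. Counts were taken over combined exons of 756, 1771, 1387 and 5279 bases in that order. All 28 member values were whole numbers, and how reads that match several places were counted is not given in the sources used here. The noncoding rows overlapping Isg15, Usp18 and Herc6 held at most 3, 7 and 0 counts in any heart.

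The promoter window of Isg15 is shown because it carries the sequence that interferon-activated transcription factors are known to bind, the interferon-stimulated response element. The windows come from RefSeq on GRCm38.p6 and run from 250 bases before to 50 bases after the start of the gene. The Isg15 window is chr4:156200769-156201068, read on the minus strand. Capitals mark matches to GAAANNGAAA, which was searched on both strands with overlapping matches allowed.

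Isg15: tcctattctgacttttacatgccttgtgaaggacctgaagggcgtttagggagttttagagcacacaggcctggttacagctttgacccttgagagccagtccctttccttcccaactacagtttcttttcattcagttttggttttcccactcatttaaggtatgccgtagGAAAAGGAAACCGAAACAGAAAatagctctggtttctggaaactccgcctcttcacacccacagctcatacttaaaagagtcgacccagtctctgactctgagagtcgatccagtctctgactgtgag

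The 3 matches in this window overlap and form 1 unbroken run, GAAAAGGAAACCGAAACAGAAA, from 78 to 57 bases before the start. Of 32851 promoter windows of this length, 1131 (3.44%) held at least 1 match, and 2 held 3 overlapping matches in a row, those of Isg15 and of the predicted gene Gm33857. The windows of Ube2l6 and Herc6 held no match to GAAANNGAAA. Usp18 had no entry among the promoter windows. These matches are descriptions of the letters, not evidence of binding.

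The libraries were comparable in depth. Column totals over the analysed part of the genome, chromosomes 1 to 7 and the start of chromosome 8, ranged from 16402194 to 25190580 counts, and 3 counts corresponded to 0.119 to 0.183 CPM (counts scaled by library size). Member counts lay far above this, from 133 for Usp18 in control heart 1 to 2194 for Isg15 in transferred heart 1. Of the 10 cardiomyocyte markers in the table, none was at 0, and their summed level was 137023 to 159475 CPM in control hearts and 135457 to 163945 CPM in transferred hearts. Control heart 1 and transferred heart 1 carry an animal identifier that starts with letters, whereas the other 5 have plain numbers, and the labels name no batch.

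Transcripts of the modifier, the protease and the E2 were far more abundant in transferred heart 1 than in any other heart, and those of the E3 Herc6 were above all 4 control hearts in each of the 3 transferred hearts. None of the 4 genes passed an adjusted p-value of 0.05 in the edgeR quasi-likelihood test over all 7667 tested genes, where 10 genes (0.130%) passed as higher and 8 (0.104%) as lower, 0.235% together. Without adjustment, 3 of the 4 were higher at p under 0.05 in that test, against 7.17% of all tested genes that were higher and 5.27% that were lower. DESeq2 called 1 of the 4, Herc6, against 2.55% of the genes to which it gave an adjusted p-value, and limma-voom called 0 of the 4 and 0 genes in all. A difference in a bulk library can come from more cells of a type or from more RNA per cell, and these cannot be told apart here.

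Isg15, the modifier itself, was at 10.6, 12.1, 13.6 and 13.6 CPM in control hearts 1 to 4 and at 111.1, 29.3 and 9.93 CPM in transferred hearts 1 to 3. Transferred heart 1 held 8.91 times the control mean and transferred heart 2 held 2.35 times, while transferred heart 3 was the lowest of all 7. The groups therefore overlapped. The control mean was 12.5 ± 1.45 CPM (SD, n = 4) and the transferred mean 50.1 ± 53.7 CPM (SD, n = 3), so the spread among transferred hearts was larger than their mean. The log2 fold change was 2.01 ± 0.75 (SE, edgeR adjusted p = 0.353, unadjusted p = 0.0351).

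Usp18, which removes ISG15 from its targets and restrains the interferon receptor, followed the same order among transferred hearts. It was at 6.47, 6.80, 7.03 and 9.84 CPM in the control hearts and at 81.2, 21.2 and 7.86 CPM in the transferred hearts. Transferred heart 1 was 10.8 times the control mean, the largest ratio of any member, and transferred heart 3 lay inside the control range. Group means were 7.53 ± 1.56 CPM (SD, n = 4) and 36.7 ± 39.1 CPM (SD, n = 3). The log2 fold change was 2.29 ± 0.75 (SE, edgeR adjusted p = 0.301, unadjusted p = 0.0211).

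Ube2l6, the E2 that hands ISG15 to the ligase, was at 26.7, 33.6, 46.8 and 30.04 CPM in the control hearts and at 103.7, 37.5 and 29.2 CPM in the transferred hearts. Only transferred heart 1 stood outside the control range, at 3.02 times the control mean. The means were 34.3 ± 8.82 CPM (SD, n = 4) and 56.8 ± 40.8 CPM (SD, n = 3). The log2 fold change was 0.72 ± 0.45 (SE, edgeR adjusted p = 0.587, unadjusted p = 0.153), which was not past either threshold.

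Herc6, the ligase, was the member with the smallest differences between hearts of the same group. It was at 8.80, 9.64, 7.72 and 9.84 CPM in the control hearts and at 21.9, 14.7 and 13.5 CPM in the transferred hearts. All 3 transferred hearts were above all 4 control hearts, at 2.44, 1.64 and 1.5 times the control mean. Among all tested genes, 5.99% had all transferred hearts above all control hearts and 5.22% all below, and Herc6 was the only member of which this was true. Its log2 fold change was 0.89 ± 0.18 (SE, edgeR adjusted p = 0.0792, unadjusted p = 0.000708), and it ranked 68 of 7667 genes by p-value, against ranks of 534 for Usp18, 762 for Isg15 and 2000 for Ube2l6. DESeq2 gave Herc6 a log2 fold change of 0.90 (adjusted p = 0.0013). Testing all genes with at least 1 count gave it an edgeR adjusted p of 0.0189, where 0.544% of genes passed as higher. Over all alternatives its adjusted p lay between 0.0013 and 0.232.

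**Figure D1:**
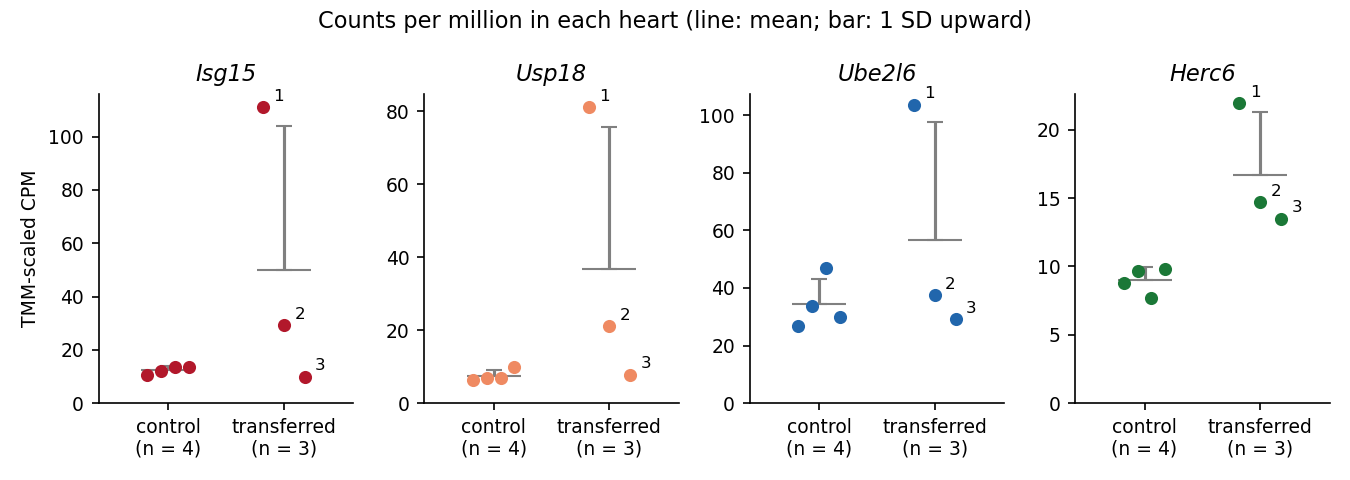
TMM-scaled CPM of the 4 genes in each heart, 1 point per heart, with the mean as a line and 1 SD drawn upward; numbers beside the points name the transferred hearts. Transferred heart 1 is the highest point in every panel, and transferred heart 3 lies within or below the control range in all panels but that of Herc6, where it is above all 4 control hearts.

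The size of these differences depended on transferred heart 1. Without it, where 0.269% of genes passed as higher, the log2 fold change was 0.66 for Isg15 (edgeR adjusted p = 0.438), 0.95 for Usp18 (0.257), -0.04 for Ube2l6 (0.947) and 0.65 for Herc6 (0.104). The direction for Ube2l6 was thus lost when this heart was left out. Without transferred heart 3, the heart with the lowest Isg15, the log2 fold changes were 2.49, 2.77, 1.04 and 1.03 in the same order, and Isg15 (edgeR adjusted p = 0.0474), Usp18 (0.0429) and Herc6 (0.0402) passed the threshold, where 1.64% of genes passed as higher. Without transferred heart 2, 0 genes (0.00%) passed as higher. Over all alternatives, the adjusted p was between 0.0474 and 0.627 for Isg15, between 0.0429 and 0.584 for Usp18 and between 0.303 and 0.947 for Ube2l6. Transferred heart 1 is also the transferred heart with a letter prefix in its identifier. Against control heart 1, the other heart of that form, it differed by 3.38 for Isg15, 3.63 for Usp18, 1.95 for Ube2l6 and 1.31 for Herc6 on the log2 CPM scale, with no replicates and no test. Among the 5 hearts with plain-number identifiers, the log2 fold changes were 0.59, 0.90, -0.14 and 0.65, and the edgeR adjusted p-values were 0.568, 0.395, 0.796 and 0.184. With the form of the identifier as a covariate over all 7 hearts, the log2 fold changes were 1.39 for Isg15, 1.69 for Usp18, 0.47 for Ube2l6 and 0.84 for Herc6 (edgeR adjusted p = 0.508, 0.378, 0.729 and 0.0956). The form with letters is held by 1 heart in each group, so a difference between the 2 forms in the response cannot be told apart from a difference of transferred heart 1.

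**Figure D2:**
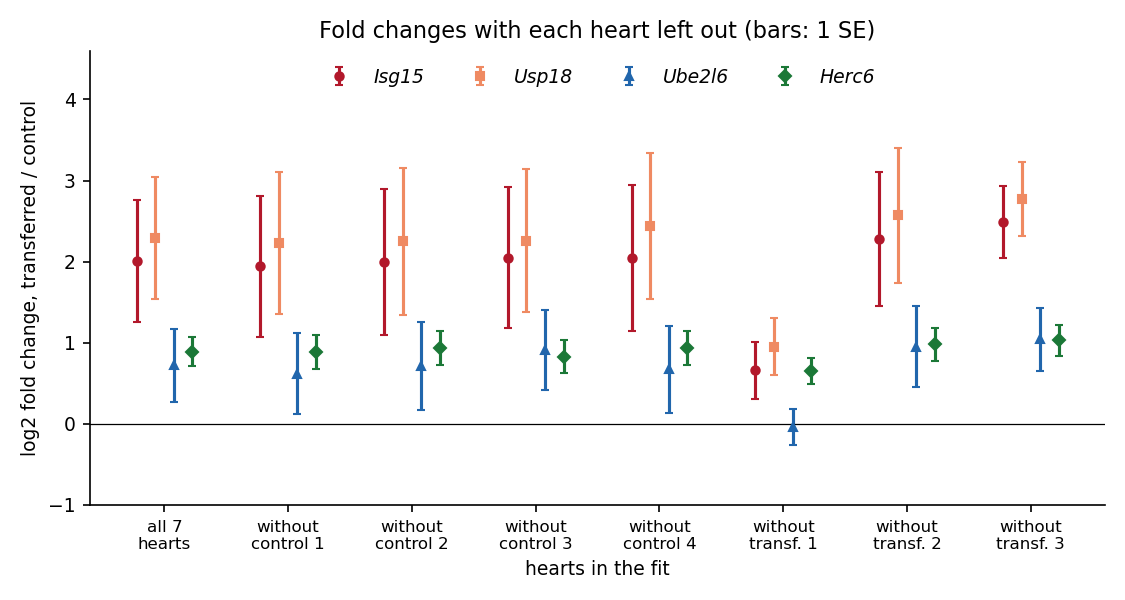
Log2 fold change (transferred over control) of the 4 genes with all 7 hearts and with each heart left out in turn; bars show 1 standard error. Leaving out transferred heart 1 brings Isg15 to 0.66 and Ube2l6 to -0.04, and leaving out any control heart keeps Isg15 between 1.94 and 2.05.

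Compared per exon length, which allows levels of different genes to be set side by side, Ube2l6 was the most abundant of the 4 in control hearts, at 24.7 ± 6.36 CPM per kb (SD, n = 4). Isg15 followed at 16.5 ± 1.91, Usp18 at 4.25 ± 0.879 and Herc6 at 1.71 ± 0.183 CPM per kb (SD, n = 4 each). In every control heart the order was the same, and the ranges of neighbours in it did not overlap, the closest being Isg15 in control heart 4 at 18.03 and Ube2l6 in control heart 1 at 19.3 CPM per kb. In transferred heart 1 the modifier exceeded its E2, with 147.0 CPM per kb for Isg15 and 74.8 for Ube2l6. The same was seen in transferred heart 2, at 38.7 and 27.1 CPM per kb. In transferred heart 3 the control order was kept, with 13.1 for Isg15 and 21.02 for Ube2l6. The Isg15 to Ube2l6 ratio per length was 0.532 to 0.833 in control hearts and 1.97, 1.43 and 0.625 in transferred hearts 1 to 3.

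Modifier and protease kept a similar ratio to each other. The Isg15 to Usp18 ratio per length was 3.24 to 4.53 in control hearts and 3.21, 3.24 and 2.96 in transferred hearts, although the level of each gene spanned about an order of magnitude. The Isg15 to Herc6 ratio did not keep to one value, at 8.41 to 12.3 in control hearts and 35.4, 13.9 and 5.14 in transferred hearts. Over the 7 hearts, which share their libraries and scaling, the Pearson correlation of log2 CPM was 0.99 for Isg15 with Usp18 and 0.66 for Ube2l6 with Herc6. Without transferred heart 1 these were 0.93 and -0.21. By Spearman correlation over the 7 hearts they were 0.79 and 0.32, and by Pearson correlation over the control hearts alone 0.67 and -0.7. Over 7 hearts the correlation was 0.91 for Isg15 with Ube2l6, 0.83 for Isg15 with Herc6, 0.86 for Usp18 with Ube2l6 and 0.90 for Usp18 with Herc6. Without transferred heart 1 these were 0.47, 0.48, 0.21 and 0.72. In the same order, Spearman correlations over the 7 hearts were 0.79, 0.54, 0.61 and 0.86. Pearson correlations over the control hearts alone were 0.64, -0.1, -0.13 and 0.49.

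**Figure D3:**
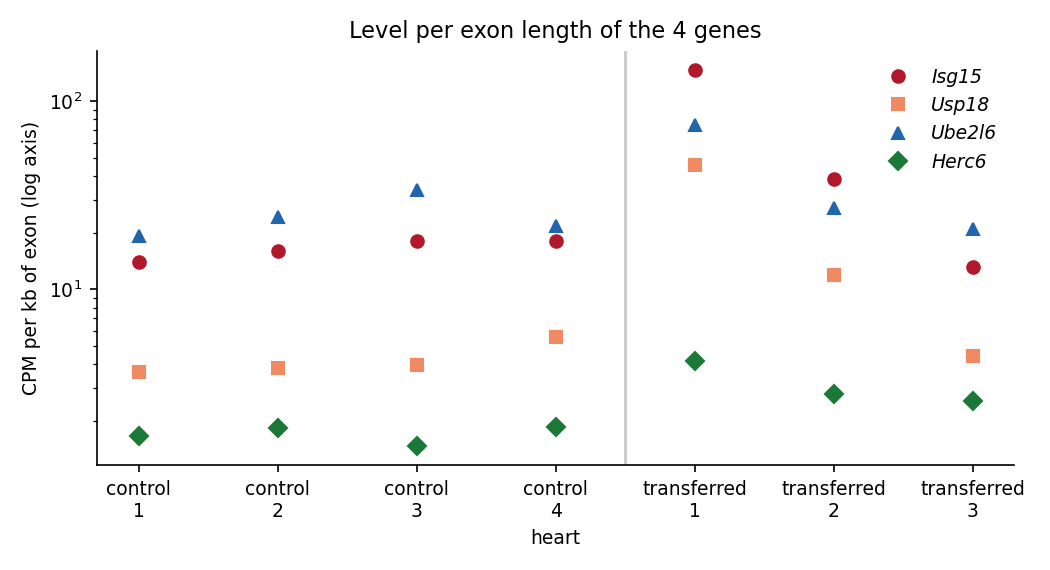
CPM per kb of exon (log axis) of the 4 genes in each of the 7 hearts, 1 symbol per gene. Ube2l6 is above Isg15 in the 4 control hearts and in transferred heart 3, and Isg15 is above Ube2l6 in transferred hearts 1 and 2.

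Of 11 other genes of the ISG15 pathway on the list, 1 was in the analysed part of the genome. Itgal encodes the alpha chain of the leukocyte integrin LFA-1, a receptor for secreted ISG15. It was at 1.70 to 3.92 CPM in control hearts and at 5.02, 11.01 and 6.77 CPM in transferred hearts, and was highest in transferred heart 2. All 3 transferred hearts were above all 4 control hearts, as in 5.99% of all tested genes. Its log2 fold change was 1.43 ± 0.32 (SE, edgeR adjusted p = 0.108), and DESeq2 called it. The E1 Uba7, the further ligases Trim25 and Arih1 and the Usp18 partners Ifnar2 and Stat2 are not analysed here.

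Few reads came from the interferon ligands in the analysed part of the genome, and Ifng, the type II ligand, is not analysed here. The rows are mouse genes on GRCm38.p6, so interferon transcripts of the transferred human cells have no row of their own. The table held 19 ligand rows, comprising the alpha genes, Ifnb1, Ifne, Ifnk, Ifnz, Ifnl2 and Ifnl3. Of these, 18 had no count in any heart, and Ifnz had 2 counts in transferred hearts, read from fractional values. At this depth a count of 0 allows up to 0.119 to 0.183 CPM, so a low level was not detectable. Of the 8 tested receptor and signalling genes, 0 passed the edgeR threshold and limma-voom called 0. Without adjustment 3 were higher at p under 0.05 (7.17% of all tested genes), and DESeq2 called 3 as higher (2.55%). Irf7, the transcription factor that amplifies type I interferon responses, was at 22.6 to 25.95 CPM in control hearts and at 931.5, 119.1 and 27.3 CPM in transferred hearts, and its log2 fold change was 3.89 ± 1.11 (SE, edgeR adjusted p = 0.253). It was highest in transferred heart 1 and next in transferred heart 2, as Isg15 was. The kinase Jak1 (log2 fold change -0.16), Irf3 (0.16) and the lambda receptor Ifnlr1 (0.21) had transferred values that overlapped the control range, with edgeR adjusted p-values of 0.573, 0.669 and 0.734. The groups did not overlap for Irf5, Irf7 and the phosphatase gene Ptpn6, all higher, against 5.99% of all tested genes. The median log2 fold change of the 8 genes was 0.47, against 0.00 over all tested genes, and 0.26 without transferred heart 1.

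The 4 genes were part of a wider pattern in the same hearts. Of 52 other interferon-stimulated genes on the list, 37 were tested and 36 had a log2 fold change above 0, against 49.7% of all tested genes, with a median of 0.84. By edgeR 1 of the 37 passed the threshold, against 0.130% of all tested genes that were higher. This was the double-stranded RNA sensor Oas2, which rose in transferred hearts, at 9.29 to 13.9 CPM in control hearts and 37.8, 25.02 and 24.7 CPM in transferred hearts (log2 fold change 1.29 ± 0.19 SE, edgeR adjusted p = 0.0384). DESeq2 called 14 of the 37 (2.55% of all genes), and without transferred heart 3 edgeR called 18 (1.64%). Without transferred heart 1 edgeR called 1 of the 37 (0.269%), and limma-voom called 0 of the 37 and 0 genes in all. With the identifier covariate, or without the letter-prefix hearts, 0 listed genes passed in edgeR. The same held with any single control heart or transferred heart 2 left out. In all of these edgeR fits 0 genes passed as higher. Without adjustment 30 of the 37 were higher (7.17%) and 0 lower (5.27%) at p under 0.05. In 15 of the 37 the transferred hearts were higher without overlap, against 5.99% of all tested genes, and in 0 they were lower without overlap (5.22%). Transferred heart 1 was the highest of the 7 hearts for 33 of the 37 (89.2%), against 16.5% of all tested genes. The exceptions were Ifitm1, Ifitm2 and Gbp4, which were highest in transferred heart 2, and Trim12a. Relative to the control mean, the median of the list was 1.33 in transferred heart 1, 0.72 in transferred heart 2 and 0.18 in transferred heart 3 on the log2 CPM scale, and between -0.10 and 0.08 in the control hearts. Without transferred heart 1 the median log2 fold change was 0.45. Isg15 and Usp18, at 3.15 and 3.43 in transferred heart 1, were exceeded by Oas3 (4.51) and Zbp1 (4.40) alone of this list, and Ube2l6 (1.63) and Herc6 (1.28) near its middle. In transferred heart 3 Isg15 was at -0.32, below the list's median, and Herc6 at 0.59, above it.

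**Figure D4:**
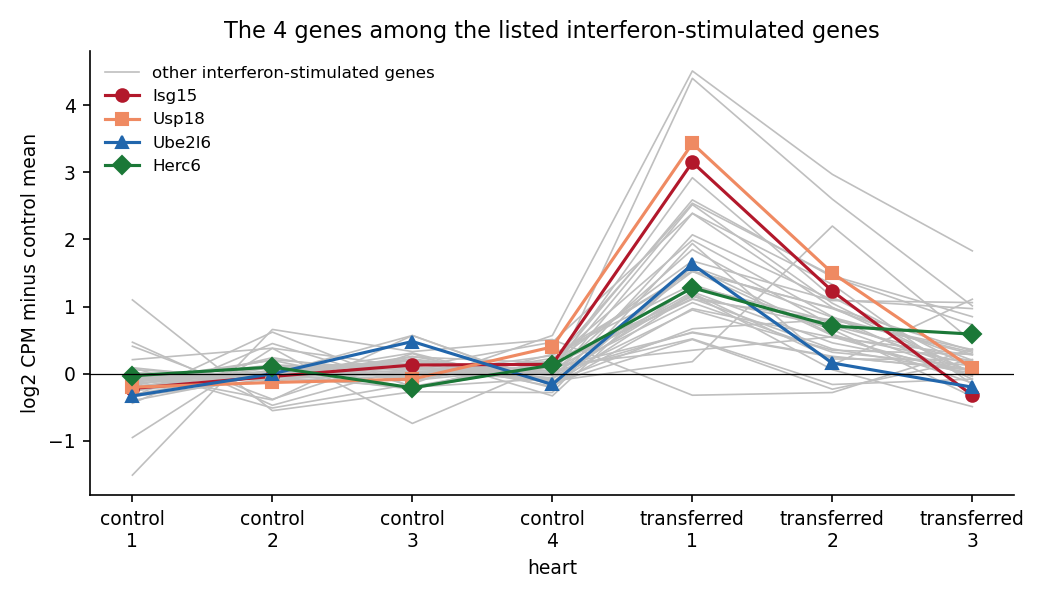
Log2 CPM minus the control mean in each heart for the 4 genes (coloured) and the 37 tested other interferon-stimulated genes (grey); each line joins the values of 1 gene, and the order of hearts within a group has no meaning. Most lines peak in transferred heart 1, where Usp18 is at 3.43 and Isg15 at 3.15, and the median of the grey lines is 0.18 in transferred heart 3.

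Other modifier systems had smaller differences between the groups. Of 14 tested genes for SUMO, NEDD8, UFM1, URM1 and related modifiers and their enzymes, 0 passed in edgeR, DESeq2 or limma-voom, and without adjustment 0 were higher (7.17% of all tested genes) and 1 was lower (5.27%) at p under 0.05. Log2 fold changes ran from -0.35 for the protease Ufsp1 to 0.09 for the E1 subunits Uba2 and Uba3 and the autophagy E1 Atg7. Their median was 0.02. The ubiquitin E1 Uba6 was at 24.8 to 30.98 CPM in control hearts and at 33.8, 26.01 and 31.9 CPM in transferred hearts (log2 fold change 0.13, edgeR adjusted p = 0.711). The 15 tested members of the UBE2 family, mostly E2 enzymes like Ube2l6, had a median log2 fold change of -0.04 and a range from -0.70 to 0.16. The lowest, Ube2c (edgeR adjusted p = 0.652), was lower by nearly as much as Ube2l6, at 0.72, was higher. Their groups did not overlap for Ube2d3, Ube2e3 and Ube2w, all higher, at log2 fold changes of 0.15, 0.13 and 0.16, where 5.99% of all tested genes were higher without overlap. The 22 tested genes with USP symbols, most of which encode deubiquitinating enzymes, ranged from -0.18 to 0.20 with a median of -0.02, and Usp18 at 2.29 was outside that range. The groups did not overlap for 1 of the 22, Usp12, which was lower in transferred hearts (edgeR adjusted p = 0.401), as 5.22% of all tested genes were without overlap. In the UBE2 and USP families 0 genes passed in edgeR, DESeq2 or limma-voom, and without adjustment 1 UBE2 gene, Ube2h, was lower at p under 0.05 and no USP gene was past it, against 7.17% of all tested genes higher and 5.27% lower. Of the HERC family, Herc2 was at 120.6 to 176.4 CPM in control hearts and 140.9 to 158.0 CPM in transferred hearts, and Herc3 at 119.8 to 154.6 and 147.8 to 177.5 CPM (log2 fold change 0.28 ± 0.10 SE, edgeR adjusted p = 0.301, unadjusted p = 0.0209).

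The genes whose pattern over the 7 hearts was most like that of the 4 members were ranked by the mean of their Pearson correlations with each member. The 10 highest, with means from 0.935 to 0.945, were Sp100, Oasl2, Ifi44, Irf7, Ifih1, Gbp3, Fkbp9, B2m, Gvin1 and Trim21. Of these, 8 were on the 2 interferon lists, which held 8 and 37 of the 7667 tested genes. Gvin1, an interferon-inducible GTPase, and Fkbp9, a prolyl isomerase of the endoplasmic reticulum, were on neither. Likeness does not depend on size. Irf7 had a log2 fold change of 3.89 and B2m, the light chain of class I molecules, of 1.16, while Fkbp9 had 0.15, at 355.9 to 368.1 CPM in control hearts and 451.0, 390.5 and 367.4 CPM in transferred hearts. All 10 were led by transferred heart 1, and without it 3 of the 10 remained among the 10 most alike. By Spearman correlation over the 7 hearts, 1 of the 10 was among the 10 most alike. Without transferred heart 1, mean Pearson correlations of the 10 genes were between 0.679 and 0.756. Of these 10, 9 had a promoter window, and the 4 whose window held GAAANNGAAA are shown beside Isg15, since the run in Isg15 is longer than in any of them. Each stretch is at most 40 bases on the strand of the gene, on GRCm38.p6, and capitals mark the match or, for the opposite strand, its complement.

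Isg15 (chr4:156200866-156200905): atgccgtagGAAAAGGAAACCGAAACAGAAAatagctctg
B2m (chr2:122147533-122147572): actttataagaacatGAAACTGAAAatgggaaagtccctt
Gbp3 (chr3:142559987-142560026): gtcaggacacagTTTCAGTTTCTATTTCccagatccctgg
Ifih1 (chr2:62646206-62646238): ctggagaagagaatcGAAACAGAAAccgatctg
Trim21 (chr7:102565442-102565481): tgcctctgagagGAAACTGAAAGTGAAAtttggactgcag

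Trim21 and Gbp3 held 2 overlapping matches and B2m and Ifih1 held 1. Among the listed interferon-stimulated genes that were tested and had a window, 19 of 31 (61.3%) held a match, against 240 of 5734 tested genes with a window (4.19%). The list was chosen with such genes in mind, so this describes the list.

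All 8 neutrophil markers and all 12 macrophage and monocyte markers in the table had a log2 fold change above 0. Of the 12 macrophage and monocyte markers, 2 (C1qb and Mrc1) passed the edgeR threshold as higher, against 0.130% of all tested genes, and 10 were higher without overlap, against 5.99%. DESeq2 called 10 of the 12 (2.55% of all genes) and limma-voom 0, and edgeR called 0 without transferred heart 1 (0.269%) and 9 without transferred heart 3 (1.64%). None was at 0 in all hearts. The summed level of the 12 was 607.4 to 869.8 CPM in control hearts and 1387, 1475 and 993.7 CPM in transferred hearts 1 to 3. The 8 neutrophil markers summed to 20.1 to 44.7 CPM in control hearts and to 33.0, 334.7 and 62.6 CPM in transferred hearts, and 0 of 8 passed in edgeR or limma-voom. Without adjustment 7 were higher at p under 0.05 (7.17% of all tested genes), and DESeq2 called 6 (2.55%). Transferred heart 2 was the highest in both sums, while transferred heart 1 was the highest in Isg15, Usp18, Ube2l6 and Herc6. Of the 12 macrophage and monocyte markers, however, 5 were highest in transferred heart 1 (C1qa, Fcgr1, Fcer1g, Laptm5 and Ctss), and relative to the control mean the list's median was 1.0 in transferred heart 1, 1.15 in transferred heart 2 and 0.48 in transferred heart 3 on the log2 CPM scale. None of the 8 neutrophil markers was highest in transferred heart 1. The 11 T cell markers in the table, as mouse genes, summed to 31.9 to 39.4 CPM in control hearts and to 29.5, 37.8 and 32.6 CPM in transferred hearts. Most of this sum was Cd28, at 23.2 to 31.4 CPM in control hearts and at 21.9, 29.3 and 27.03 CPM in transferred hearts. Of the 4 that were tested 0 passed, and Cd247 had the smallest p (log2 fold change -1.06, edgeR adjusted p = 0.278). Cd2, too low to be tested, had 2 counts over the control hearts and 12 over the transferred hearts. The other markers too low to be tested went either way. Control and transferred counts were 16 and 8 for Cd27, 8 and 4 for Zap70 and 39 and 22 for Icos. They were 17 and 21 for Lck, 13 and 21 for Lat and 2 and 4 for Cd8a. Siglech, the marker of plasmacytoid dendritic cells in the table, was at 1.94 to 3.34 CPM in control hearts and at 1.57, 1.223 and 2.27 CPM in transferred hearts. Endothelial markers, 10 in the table, summed to 3648 to 4208 CPM in control hearts and to 3325 to 3843 CPM in transferred hearts, with 2 of 10 (Aqp1 and Aplnr) passing as lower, against 0.104% of all tested genes, and 6 of 10 with a log2 fold change above 0. Without overlap between the groups, 1 of the 10 was higher (5.99% of all tested genes), the von Willebrand factor gene Vwf, and 3 were lower (5.22%), Aqp1, Aplnr and the receptor gene Tie1. The log2 fold change was 1.17 for Vwf (edgeR adjusted p = 0.2) and -0.28 for Tie1 (0.185). Fibroblast markers, 8 in the table, summed to 4993 to 6679 and 4566 to 7267 CPM. The part of macrophage and neutrophil numbers in the member values was not tested.

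**Figure D5:**
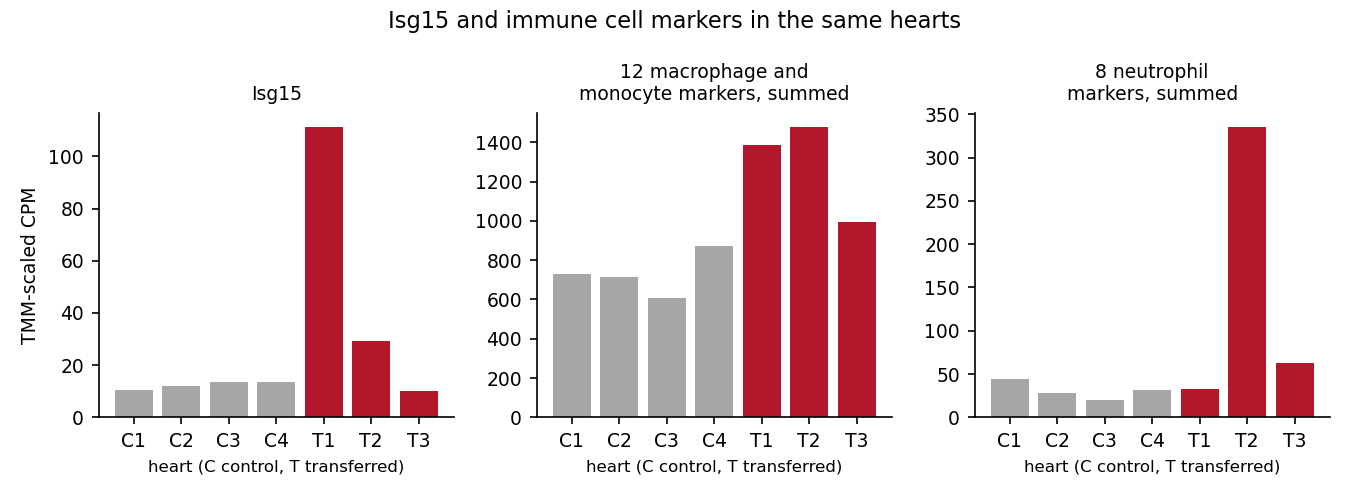
TMM-scaled CPM of Isg15, of 12 macrophage and monocyte markers summed and of 8 neutrophil markers summed, in control hearts (C1 to C4, grey) and transferred hearts (T1 to T3, red); all axes start at 0. Isg15 is highest in T1 at 111.1 CPM, and both marker sums are highest in T2, at 1475 and 334.7 CPM.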

How the data were processed

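The authors deposited estimated counts per gene for 7 hearts, not normalized. Per the submitters' processing notes, the tools were bcl2fastq 2.20.0.422, cutadapt 2.5, STAR 2.7.2b, featureCounts 1.6.4 and DESeq2 1.22.2 on GRCm38.p6; their settings, strand use included, are not given in the sources used here. Of the values, 4.63% had a fractional part, and all were rounded. The 1 unfinished row was left out, and the rest of chromosome 8 and later chromosomes are not analysed here. All 20343 gene identifiers matched the RefSeq table of that build.

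Genes were filtered with filterByExpr and scaled by TMM, leaving 7667, and tested with the edgeR 4.0.16 quasi-likelihood test (robust, R 4.3.3) with Benjamini-Hochberg adjustment at 0.05. Standard errors came from the F statistic. CPM values are TMM-scaled, and log2 CPM used a prior count of 2. Alternatives were DESeq2 1.42.0, limma-voom (limma 3.58.1), other scalings and filters, a covariate and left-out hearts. On simulated counts for 7575 genes with 200 changed, 71.7% of 2-fold and 94.9% of 4-fold changes were recovered, and 4.62% of 173 calls were false. Simulated counts were drawn independently for each gene and heart, so no simulated heart departed from its group in many genes at once. Recovery for genes led by a single heart, as Isg15 and Usp18 were, was not tested. The members and lists were chosen with earlier results of these data known. The named genes are the 4 members, listed genes and the 10 most alike by mean correlation; families took protein-coding rows by symbol. P-values set the group difference against the spread between these hearts, estimated with information shared across genes. Count floors cover counting error only. Some listed genes and 1 motif are not reported here.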

Additional observations from a re-analysis of the deposited data

Results flagged for a closer look

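Each group of 4 control hearts was checked for a heart far from the other 3 on the CPM scale, for the 105 tested genes that are members, listed genes or among the 10 most alike. Chance marks about 1 in 20 such groups, which gives 5.25, and 8 were marked. Usp18 was at 9.84 CPM in control heart 4, against 6.47 to 7.03 CPM in the other control hearts. In the same heart Ddx58, a sensor of viral RNA, was at 42.8 CPM, against 33.97 to 35.5 CPM, and Irf5 was at 5.99 CPM, against 6.84 to 6.95 CPM. Ifi203 was at 82.9 CPM in control heart 1, against 26.3 to 32.01 CPM in the others, and 5 of its 7 values had a fractional part. Gbp4 was at 19.3 CPM in control heart 3, against 14.8 to 15.4 CPM. Of the E2 genes, Ube2e3 was at 106.6 CPM in control heart 3, against 100.3 to 100.9 CPM, Ube2k at 107.7 CPM in control heart 1, against 115.7 to 116.0 CPM, and Ube2r2 at 392.2 CPM in control heart 1, against 427.1 to 433.2 CPM.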

How the results depend on the processing

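Isg15, Usp18 and Herc6 kept a positive log2 fold change in all 18 alternatives, with ranges of 0.59 to 2.49, 0.90 to 2.77 and 0.65 to 1.03. Ube2l6 was positive in 16 of 18 and reversed to -0.04 without transferred heart 1 and to -0.14 without the letter-prefix hearts. Leaving out each heart gave 0.66 to 2.49 for Isg15, 0.95 to 2.77 for Usp18, -0.04 to 1.04 for Ube2l6 and 0.65 to 1.03 for Herc6. Isg15 (2.49) and Usp18 (2.77) passed the threshold without transferred heart 3 and in no other alternative. Herc6 passed there (1.03), with DESeq2 (0.90) and with all genes with at least 1 count (0.89). Against 10 genes higher and 8 lower, DESeq2 gave 192 and 60, all genes with at least 1 count 66 and 15, total count scaling 26 and 9, and the prefix covariate, the fit without the letter-prefix hearts and limma-voom 0 and 0. Left-out hearts gave 0 to 128 higher and 0 to 12 lower; each control heart and transferred heart 2 gave 0 higher, with 1 lower without control heart 3 and 0 without the others, and transferred heart 1 gave 21 and 6. Against 1 listed gene past the threshold, DESeq2 gave 18, all genes with at least 1 count 3, total count scaling 2, the prefix covariate, the fit without the letter-prefix hearts and limma-voom 0, and left-out hearts 0 to 19. The median of the interferon receptor and signalling genes was 0.24 without the letter-prefix hearts and 0.26 to 0.61 with each heart left out. Left-out hearts gave medians of -0.01 to 0.03 for other modifiers and -0.03 to 0.05 for the UBE2 family. Of the 10 most alike genes, 1 was shared with the Spearman ranking, and 3 were shared without transferred heart 1. For all of these, the cause was not tested. No paired analysis was made, because the labels state no pairing. The heart numbers in the labels share only 1 between the groups, and the replicate numbers used here only name the hearts. Member counts were 133 to 2194 per heart, and the share of counting error in their spread was not tested.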

Other observations

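The nearest tested genes on either side of each member are listed for comparison, and none passed the edgeR threshold. Isg15 lies between Agrn, 1.89 kb away, which encodes the heparan sulfate proteoglycan agrin, and Perm1, 2.44 kb away, a regulator of muscle metabolism. Agrn averaged 80.2 CPM in control hearts and was at 137.2, 91.8 and 94.3 CPM in transferred hearts (log2 fold change 0.43, edgeR adjusted p = 0.288), and Perm1 had a log2 fold change of -0.13 (0.725). Serping1, the C1 inhibitor gene 23.4 kb from Ube2l6, averaged 364.3 CPM in control hearts and was at 608.1, 454.3 and 454.8 CPM in transferred hearts (log2 fold change 0.47, edgeR adjusted p = 0.215). The mitochondrial import gene Timm10, 17.0 kb to the other side, had a log2 fold change of -0.01 (0.978). Beside Usp18, the log2 fold changes were 0.20 for Tuba8, 19.8 kb away (edgeR adjusted p = 0.635), and 0.03 for Iqsec3, 102.0 kb away (0.972). Beside Herc6, Ppm1k, 45.4 kb away, had 0.05 (0.882) and Pyurf, 19.6 kb away, had -0.21 (0.272). In transferred heart 1, Agrn, Tuba8 and Serping1 were at 0.78, 0.57 and 0.75 above their control means on the log2 CPM scale, against 3.15 for Isg15, 3.43 for Usp18 and 1.63 for Ube2l6. In the same heart Timm10 was at 0.19, Perm1 and Ppm1k at 0.07, Iqsec3 at -0.03 and Pyurf at -0.27.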
